A study of Mus musculus with 2 samples.

Results

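The Fermt1 and Tfpi2 tumor cell state is a set of single cells from mouse mammary tumors, chosen by the genes they expressed. A barcode entered with at least 1000 unique molecular identifiers (UMIs), 500 or more genes and no more than 20% mitochondrial UMIs. It was gated as a tumor cell when it held at least 1 Epcam UMI and at least 5 of the luminal keratins Krt8 and Krt18. The gate also asked for under 2 Krt5 UMIs and no UMI of Cdh5 or Pdgfra. Members had a UMI of at least 4 of 6 genes, Fermt1, Tfpi2, Prrg4, Tubb2b, AA467197 and Hmox1. They also had a UMI of under 3 of Muc15, Slc5a8, Klk10, Il23a and Plb1, and under 5 UMIs of the milk genes Csn2, Wap and Glycam1 together. The rule took in 569 cells, 50 of the Dll1+ and 519 of the Dll1- tumor. They came from 7741 and 9132 gated tumor cells, 10581 and 11121 barcodes within the limits, and 26916 barcodes deposited in all. Because measured UMIs chose the members, the 14 genes of the rule are described and never counted as results.

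The study sorted living cells without CD45, the leukocyte marker, from 1 Dll1+ and 1 Dll1- mammary tumor of untreated mice and sequenced them in droplets. Dll1 is a Notch ligand of the cell surface. Strain, age and the way a tumor was called Dll1+ or Dll1- are not stated in the labels. Each group is 1 library, so no comparison has replicates and none has a test. All intervals are 95% intervals of counting error. Levels are CPM, the usual scaling of counts to a common library total, taken over a cell group's summed UMIs, and ratios are log2 of CPM plus 1. The state cells held 921120 UMIs in the Dll1+ and 6886250 in the Dll1- library. Their medians per cell were 15318.5 and 11742 UMIs, against 9229 and 11185 in the other gated cells. Mitochondrial UMIs had medians of 3.75% and 2.64% in state cells, against 5.34% and 3.73% in the other gated cells. The libraries shared 109 barcodes, of which 0 and 4 were state cells.

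Fermt1 encodes kindlin-1, an adaptor that binds the tails of integrin beta chains and switches integrins on, and so ties epithelial cells to laminin and other matrix proteins. Tfpi2 is a secreted Kunitz-type inhibitor of serine proteases. Prrg4 is a membrane protein with the Gla domain known from clotting factors, and Tubb2b is a beta tubulin. Hmox1, heme oxygenase 1, breaks down heme and is induced by oxidative stress. AA467197 is the mouse counterpart of human C15orf48, a small mitochondrial protein related to the cytochrome c oxidase subunit Ndufa4, and its transcript also carries miR-147. Luminal cells of the mammary gland make milk proteins under the transcription factor Elf5, and they carry simple keratins such as Krt8 and Krt18.

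The sequences of the genes that define the state come first. Of the 6 genes, 4 matched a window in the promoter table used here, from RefSeq (GRCm38.p6). Each window ran from 250 bases before to 50 after a RefSeq start of the gene. For Tfpi2 and AA467197 this start lay inside the longer gene span given below. The windows were searched on both strands for TGANTCA, where N is any base, and for ACGTG, the core of the hypoxia response element. TGANTCA is wider than the AP-1 site, which is TGACTCA or TGAGTCA. The motifs were chosen with results of these data known. TGANTCA reads the same on both strands, and capitals mark both motifs. Of all 32851 windows in the table, 7.81% held TGANTCA and 19.6% held ACGTG. The windows shown are Fermt1 at chr2:132945987-132946286 (minus strand), Tfpi2 at chr6:3968326-3968625 (minus strand, 1 of its 3 windows) and AA467197 at chr2:122637637-122637936 (plus strand).

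Fermt1: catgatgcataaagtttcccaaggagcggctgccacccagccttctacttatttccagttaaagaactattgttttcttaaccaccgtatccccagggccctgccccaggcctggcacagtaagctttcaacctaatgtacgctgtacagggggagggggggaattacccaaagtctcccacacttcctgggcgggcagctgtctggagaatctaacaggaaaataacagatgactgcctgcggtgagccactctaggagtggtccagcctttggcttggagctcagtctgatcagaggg
Tfpi2: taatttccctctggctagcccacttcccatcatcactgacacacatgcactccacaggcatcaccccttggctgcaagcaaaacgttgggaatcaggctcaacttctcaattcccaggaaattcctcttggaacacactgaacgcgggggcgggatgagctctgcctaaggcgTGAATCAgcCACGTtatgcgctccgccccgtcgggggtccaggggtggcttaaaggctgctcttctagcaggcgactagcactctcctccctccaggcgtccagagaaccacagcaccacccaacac
AA467197: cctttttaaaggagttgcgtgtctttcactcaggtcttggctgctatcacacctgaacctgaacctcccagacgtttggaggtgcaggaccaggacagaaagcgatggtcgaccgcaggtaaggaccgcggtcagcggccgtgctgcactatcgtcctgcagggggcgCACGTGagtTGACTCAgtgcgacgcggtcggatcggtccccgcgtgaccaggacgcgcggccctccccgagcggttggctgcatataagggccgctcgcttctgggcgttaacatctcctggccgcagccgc

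The Tfpi2 window held TGANTCA starting 77 bases and ACGTG starting 68 bases before its RefSeq start. The first was TGAATCA, which is not the AP-1 site. In the AA467197 window TGANTCA, as TGACTCA, started 73 bases before the RefSeq start, and ACGTG matched at 82 and 81 bases as the palindrome CACGTG. The Fermt1 window held neither motif, and the window of Prrg4 held neither. A match is only a description of the letters. The hairpin of miR-147 lies from 122640803 to 122640881 on the plus strand of chromosome 2, inside the last exon of 3 of the 4 annotated AA467197 transcripts. The mature 5p arm is shown because the rule gene carries the hairpin, with the seed of this arm, bases 2 to 8, in capitals. The 3p arm is not shown. Mature miRNAs were not measured here.

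mmu-miR-147-5p: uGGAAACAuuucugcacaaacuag

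State cells were rarer in the Dll1+ tumor. They were 50 of 7741 gated cells (0.646%, exact Clopper-Pearson interval 0.480 to 0.851) in the Dll1+ library, against 519 of 9132 (5.68%, 5.22 to 6.18) in the Dll1- library. With each cell thinned to 3000 UMIs before the gate, the shares were 4 of 5571 cells (0.0718%, 0.0196 to 0.184) and 106 of 8089 (1.31%, 1.07 to 1.58). The share therefore hung on depth, and its order did not. Outside the state too, most of the 6 genes were detected in fewer gated cells of the Dll1+ than of the Dll1- tumor. Fermt1 was found in 3.19% and 12.9% of the other gated cells, Prrg4 in 10.1% and 33.1%, and Tubb2b in 17.6% and 63.5%. Tfpi2 and AA467197 had the same order, and Hmox1 the reverse (25.1% and 23.0%). The part of this in the order of the shares was not tested. Before the limits on the other genes, 71 Dll1+ and 720 Dll1- gated cells had at least 4 of the 6 genes. The Muc15 limit alone took out 17 and 128 of them, the milk limit alone 0 and 31, and both together 4 and 42. Of the members, 35 and 345 had 4 of the genes, 14 and 135 had 5, and 1 and 39 had all 6. With 1 tumor on each side, the difference between tumors cannot be told apart from the difference between libraries.

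**Figure D1:**
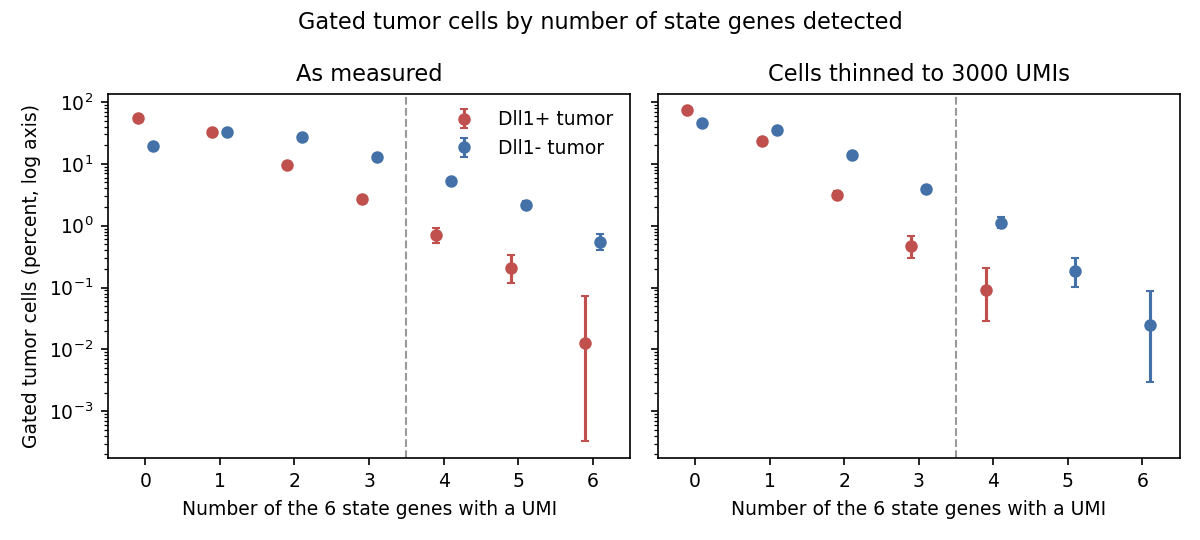
Percent of gated tumor cells (log axis) by how many of the 6 state genes had a UMI, in the Dll1+ and Dll1- library, as measured and with cells thinned to 3000 UMIs. Bars are exact 95% counting intervals, counts of 0 are not drawn, and the dashed line is the limit of the rule. From 2 genes on, the Dll1+ points lie below the Dll1- points in both panels.

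The 6 genes did not contribute alike, and Hmox1 led in the Dll1+ tumor. Fermt1 (ENSMUSG00000027356, chromosome 2, 132904389 to 132945906, minus strand, mm10) was at 193 CPM (166 to 224) in Dll1+ state cells and 241 CPM (229 to 253) in Dll1- state cells. Other gated cells had 5.27 and 22.3 CPM. Tfpi2 (ENSMUSG00000029664, chromosome 6, 3962595 to 3988919, minus strand) was at 123 and 235 CPM in the state cells and at 5.57 and 14.7 CPM in the others. AA467197 (ENSMUSG00000033213, chromosome 2, 122636986 to 122641191, plus strand) was at 244 and 181 CPM in the state cells, against 5.61 and 12.03 CPM. Hmox1 was at 406 and 268 CPM against 81.1 and 83.3 CPM, Tubb2b at 182 and 388 CPM against 42.1 and 186 CPM, and Prrg4 at 53.2 and 138 CPM against 11.6 and 49.1 CPM. The rule fixed the direction of all of these. The most widely detected gene was Hmox1 in Dll1+ members (86% of cells) and Tubb2b in Dll1- members (96.3%), and Tfpi2 was the least widely detected in both (52% and 57.0%). Tubb2b was also found in 17.6% and 63.5% of the other gated cells, and AA467197 in 1.82% and 5.60% of them.

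Outside the gate, the 6 genes did not keep together. Barcodes with a Cdh5 UMI, the endothelial cadherin, had 109 CPM (91.1 to 129) of AA467197 in the Dll1+ library and 62.0 CPM (48.7 to 77.8) in the Dll1- library, and Tfpi2 at 64.9 and 82.9 CPM. Their Fermt1 was at 0 and 1 UMI and their Prrg4 at 0 and 0. Barcodes with at least 2 Krt5 UMIs had Fermt1 at 21.5 and 46.1 CPM and Tfpi2 at only 4.15 and 2.49 CPM. Barcodes with a Pdgfra UMI, the fibroblast receptor, had Tfpi2 at 41.8 and 37.1 CPM and Fermt1 at 3 UMIs and 1 UMI. Each of the 6 genes was lower in all 3 sets of barcodes than in the state cells of the same library, which the rule favors.

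Krt7, a simple keratin of ducts and other lining epithelia that the rule did not use, stood at 808 CPM (751 to 868) in Dll1+ state cells against 105 CPM (103 to 107) in the other gated cells, and at 1117 CPM (1092 to 1142) in Dll1- state cells against 370.0 CPM (366 to 374). Krt7 was named as a marker of the state with results of these data known, so its values are a description. A Krt7 UMI was found in 94% of Dll1+ and 97.5% of Dll1- state cells, against 27.2% and 71.2% of the other gated cells. Thinned to 3000 UMIs, the shares were 72% and 84.2% in the state, against 15.4% and 46.1%. Muc15 and Il23a cells, the second set of tumor cells described below, gave 70.4% and 83.2%, or 37.9% and 50.7% thinned. Pdgfra barcodes, which should lack Krt7, gave 1.86% and 8.26% at medians of 9664 and 6916 UMIs. Krt17, a keratin of hair follicle and stressed epidermis, stood at 477 CPM (433 to 523) and 528 CPM (511 to 546) in the state, against 77.7 and 106 CPM. Krt8 and Krt18 differed less: Krt18 had a log2 ratio of 0.50 in the Dll1+ and 0.63 in the Dll1- tumor. Krt5 was held under 2 UMIs by the gate, while Krt14, which no rule touched, had 494 CPM against 313 CPM in the Dll1+ tumor and 137 CPM in both groups of the Dll1- tumor.

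**Figure D2:**
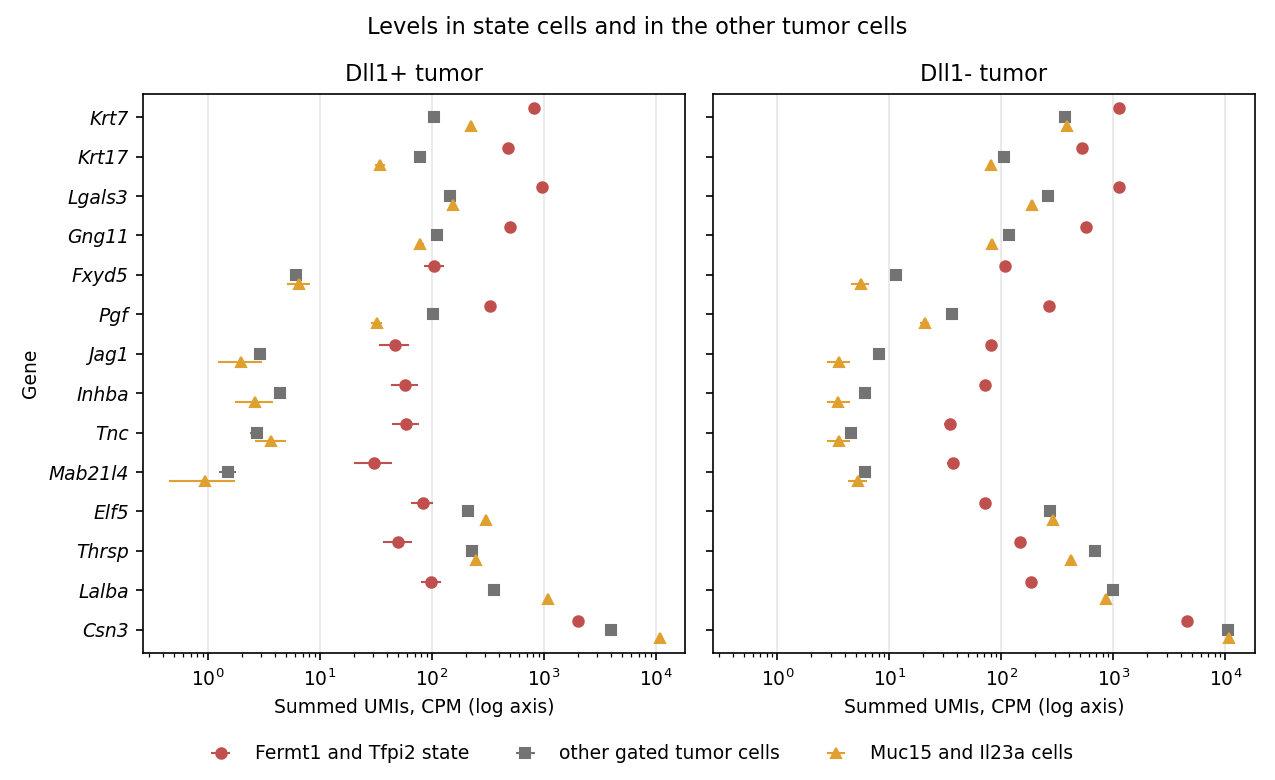
Levels of genes outside the rule (summed UMIs in CPM, log axis) in state cells, the other gated tumor cells and the Muc15 and Il23a cells of each tumor. Bars are 95% Poisson intervals, hidden where narrower than the symbol. Genes from Krt7 to Mab21l4 lie highest in the state cells of both tumors, and Elf5, Thrsp, Lalba and Csn3 lie lowest there.

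The state was set against all other gated cells in each tumor. In the Dll1+ tumor, of 6438 genes with at least 20 CPM in one group, 352 (5.47%) were past 2-fold higher in the state and 291 (4.52%) past 2-fold lower. In the Dll1- tumor, of 5716 genes, 214 (3.74%) were higher and 281 (4.92%) lower. The counting interval of the ratio lay wholly past 2-fold for fewer genes. These were 223 higher and 44 lower in the Dll1+ tumor, and 175 higher and 159 lower in the Dll1- tumor. The Dll1+ counts rest on 50 cells. Leaving out each gene's richest cell there, an alternative chosen after seeing the data, gave 222 higher and 590 lower, and dropping likely doublets gave 589 lower. The first alternative kept the depth of each whole group, so it tends to take a larger share of a gene from 50 cells than from 7691. The median over the counted genes shifted by -0.17 with it. Of 5510 genes counted in both tumors, 148 were at least 2-fold higher in both, which is 51.2% of the 289 higher ones of the Dll1+ and 77.5% of the 191 of the Dll1- tumor. Lower in both were 87, which is 54.4% of 160 and 33.3% of 261. The pairs of groups share no library.

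Jag1, Inhba and Pgf were among the 12 genes with the highest ratios of the Dll1- tumor, and of these Jag1 alone was among the 12 of the Dll1+ tumor. Jag1, a Notch ligand of the cell surface, had 46.7 CPM (33.8 to 62.9) in Dll1+ state cells against 2.91 CPM (2.56 to 3.29) in the other gated cells, and 80.6 CPM (74.0 to 87.6) in Dll1- state cells against 8.08 CPM (7.56 to 8.63). The log2 ratios were 3.61 and 3.17, and 18 of 50 and 209 of 519 state cells held its UMIs. Inhba, the subunit of activin A, had 57.5 CPM (43.1 to 75.3) against 4.44 CPM in the Dll1+ tumor. In the Dll1- tumor it had 71.7 CPM (65.5 to 78.4) against 6.03 CPM, from 93 of the state cells. Pgf, placental growth factor, a ligand of the VEGF receptor Flt1, had 332 CPM (296 to 372) against 103 CPM in the Dll1+ and 267 CPM (255 to 279.8) against 36.1 CPM in the Dll1- tumor. For Jag1, Inhba and Pgf the state intervals lay above the levels of the other cells in both tumors. These genes were not limited to the state: Cdh5 barcodes had Jag1 at 44.9 and 72.0 CPM, and Krt5 barcodes at 35.8 and 135 CPM.

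Fxyd5, Tnc and Mab21l4 were among the 12 highest of both tumors, and Pla2g7 among those of the Dll1- tumor. Fxyd5, a regulator of the sodium pump also called dysadherin, had 104 CPM against 6.07 CPM in the Dll1+ tumor and 108 CPM against 11.5 CPM in the Dll1- tumor. Tnc, the matrix glycoprotein tenascin-C, had 58.6 CPM against 2.73 CPM and 34.7 CPM against 4.50 CPM. Its Dll1+ UMIs came to 48.1% from 1 cell, and without the richest cell of each group the log2 ratio there was 3.17. Mab21l4 had 30.4 CPM against 1.51 CPM and 37.3 CPM against 6.10 CPM. Pla2g7, an enzyme that inactivates platelet-activating factor, had 32.6 CPM against 3.65 CPM and 30.6 CPM against 3.67 CPM. Lgals3 (galectin-3) and Gng11, a G protein gamma subunit, were chosen after their values were seen. Lgals3 had 969 CPM against 145 CPM and 1127 CPM against 259.6 CPM, and Gng11 had 499 CPM against 111 CPM and 565 CPM against 118 CPM.

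Some of the highest genes rested on few cells. Crct1, a gene of the epidermal differentiation complex, had the highest ratio of the Dll1- tumor (85.4 CPM against 2.76 CPM, log2 4.52), but its UMIs were in 12 cells and 79.6% of them in 1. Without the richest cell of each group its log2 ratio was 2.48. In the Dll1+ tumor Has2, which makes hyaluronan, led with 27 UMIs in 11 cells (29.3 CPM against 0.641 CPM, log2 4.21). Timp1, an inhibitor of metalloproteinases, had 50.1 CPM against 7.57 CPM in the Dll1- tumor, with 19.4% of its UMIs in 1 cell. Further genes among the highest of the Dll1- tumor were Ctla2b (26.7 CPM against 3.36 CPM) and Zfp469 (23.8 CPM against 3.71 CPM), and reads of Ctla2b may be shared with its near copy Ctla2a. In the Dll1+ tumor they were Tnfrsf9 (8 cells), Ctla2a (12 cells), Nkd2 (83.6 CPM against 6.08 CPM), an antagonist of Wnt signaling, Adam12 (19 UMIs) and Fn1. Fn1, fibronectin, had 344 CPM against 27.4 CPM there, with 60.6% of its UMIs in 1 cell, and a log2 ratio of 2.32 without the richest cells.

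Genes of adhesion, the process in which Fermt1 works, were counted as a list. Members of a list were measured with at least 30 UMIs over both groups and counted past 1.5-fold. Among all genes so measured, 12.7% were higher and 24.1% lower in the Dll1+ tumor, and 8.96% and 16.2% in the Dll1- tumor. Of the adhesion, integrin and laminin genes 12 of 21 were higher and 0 lower in the Dll1+ tumor (median log2 ratio 0.61), and 11 of 20 and 0 in the Dll1- tumor (0.62). One of the 12, Col17a1, rested on 1 state UMI, and its ratio is that median. The medians of all genes were -0.14 and -0.10. Lama3, a laminin alpha chain, had log2 ratios of 3.01 on 16 UMIs and 2.58 on 69 UMIs, and Lamb3, a laminin beta chain, 1.35 and 0.69. Itga2, a collagen receptor chain, had 26.1 CPM against 3.01 CPM and 15.0 CPM against 2.33 CPM. Cd44, the hyaluronan receptor, had 287 CPM (253 to 323) against 41.9 CPM and 348 CPM (334 to 362) against 105 CPM. Itgb1, the common beta chain, had 456 CPM against 136 CPM and 410.1 CPM against 163 CPM, and Itgb4, Itgb6 and Itga3 were past 1.5-fold in both tumors too. Fermt2, the kindlin of most other tissues, had 137 CPM against 121 CPM and 225 CPM against 171 CPM, and Itga6, with log2 ratios of -0.46 and -0.55, was the lowest of the measured integrins.

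Genes of coagulation and protease inhibition, the pathway of Tfpi2, were counted apart from Tfpi2 and Prrg4. Of 18 measured, 5 were higher in the Dll1+ tumor, Tfpi on 2 UMIs (median 0.19), and 10 were higher and 0 lower in the Dll1- tumor (0.64). Thbd was counted lower in the Dll1+ tumor, with 0 UMIs against 0.515 CPM, which is under the floor of 3 counts over the state cells (3.26 CPM), so a lower level is not shown. Serpinb5, maspin, had 87.9 CPM against 41.4 CPM in the Dll1+ tumor and 80.9 CPM against 48.8 CPM in the Dll1- tumor. Plaur, the urokinase receptor, had 60.8 CPM against 46.1 CPM in the Dll1+ tumor, where it stayed under 1.5-fold, and 67.2 CPM against 30.3 CPM in the Dll1- tumor. Procr and Plat were past 1.5-fold in both tumors on 7 and 9 Dll1+ UMIs. Among tubulins, the family of Tubb2b, Tuba1a (log2 ratios 1.45 and 0.95) and Tubb6 (1.18 and 1.04) were higher in both tumors and 0 members were lower. Of 15 genes of the NRF2 and oxidative stress list other than Hmox1, 4 were higher in each tumor, with 2 lower in the Dll1- tumor; the higher ones included Sqstm1 (1.22 and 0.93) and Gsr (1.17 and 0.92), while Nqo1 had -0.30 and -0.43 and Gclm -0.04 and 0.28.

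Ndufa4, the subunit related to AA467197, had 371 CPM (333 to 413) against 463 CPM (458 to 467) in the Dll1+ tumor and 285 CPM (273 to 298) against 484 CPM (480.3 to 488) in the Dll1- tumor. It was the only member of the cytochrome c oxidase list past 1.5-fold, and only in the Dll1- tumor. The other 10 measured members, the cytochrome c oxidase subunits, lay between in both tumors. The median log2 ratio of the whole list was -0.29 in the Dll1+ and -0.28 in the Dll1- tumor.

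Of 12 measured genes induced by low oxygen (hypoxia) 8 were higher and 0 lower in the Dll1+ tumor (median 0.91), and 6 and 0 in the Dll1- tumor (0.54). Vegfa, the angiogenic growth factor, had 314 CPM (279 to 352) against 104 CPM and 332 CPM (318 to 346) against 119.9 CPM. Car9, a carbonic anhydrase of the cell surface, had 126 CPM (104 to 151) against 66.0 CPM and 96.4 CPM (89.2 to 104) against 27.1 CPM. Bnip3, a protein of mitophagy, had 162 CPM against 65.0 CPM and 200.8 CPM against 96.9 CPM, and Ndrg1 had 344 CPM against 108 CPM and 486 CPM against 289 CPM. Adm, Egln3, Pdk1 and Ddit4 were not past 1.5-fold in either tumor. Of the glycolysis genes 4 of 13 were higher and 0 lower in each tumor, with medians of 0.36 and 0.38. Slc2a1, the glucose transporter, had 234 CPM against 128 CPM and 299 CPM against 119 CPM, and Pgk1 had 1001 CPM against 452 CPM and 1151 CPM against 617 CPM.

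Of the 12 hypoxia genes 10 matched a RefSeq promoter window, and 7 of these (70%) held ACGTG, against 19.6% of all windows. The first share takes 1 window per gene, the second all windows of every gene. The list was made of genes known to be induced by low oxygen, so its share describes the list and not these cells. The holders were Car9, Bnip3, Higd1a and P4ha1, higher in both tumors, Ankrd37, higher in the Dll1+ tumor, and Egln3 and Ddit4, higher in neither. Those of Car9 (chr4:43506776-43507075, plus strand) and Bnip3 (chr7:138909457-138909756, minus strand) are shown because both genes were higher in both tumors, with the same motifs in capitals.

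Car9: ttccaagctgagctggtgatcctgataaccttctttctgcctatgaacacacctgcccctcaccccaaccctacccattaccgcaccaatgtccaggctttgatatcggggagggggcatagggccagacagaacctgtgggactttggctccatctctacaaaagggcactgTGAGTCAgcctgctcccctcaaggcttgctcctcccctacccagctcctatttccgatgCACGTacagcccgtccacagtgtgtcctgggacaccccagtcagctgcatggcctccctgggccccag
Bnip3: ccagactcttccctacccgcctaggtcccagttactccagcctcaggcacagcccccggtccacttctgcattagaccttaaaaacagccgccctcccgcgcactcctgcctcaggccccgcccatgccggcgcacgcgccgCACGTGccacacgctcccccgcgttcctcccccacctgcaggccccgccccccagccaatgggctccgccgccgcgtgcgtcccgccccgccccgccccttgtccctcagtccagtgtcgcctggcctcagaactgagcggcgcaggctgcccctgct

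In Car9 the match started 18 bases before the RefSeq start, and in Bnip3 it was the palindrome CACGTG, at 108 and 107 bases before that start. The Car9 window also held TGANTCA, at 77 bases.

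Of the milk and alveolar genes outside the rule, 5 of 9 were lower and 0 higher in the Dll1+ tumor (median -0.94, or -0.55 with Csn1s2a, at 0 UMIs in the state, set to a floor of 3 counts), and 9 of 9 were lower in the Dll1- tumor (-1.40). The limit on Csn2, Wap and Glycam1 can have favored cells with little milk RNA, and its part in this was not tested. Lalba, alpha-lactalbumin, had 98.8 CPM (79.5 to 121) in Dll1+ state cells against 359.7 CPM (356 to 364) in the other gated cells, and 185 CPM (175 to 195) against 993 CPM (987 to 999) in the Dll1- tumor. Elf5 had 82.5 CPM (65.0 to 103) against 209 CPM and 70.7 CPM (64.6 to 77.3) against 269.9 CPM. Csn3, kappa-casein, had 2019 CPM against 3985 CPM and 4574 CPM against 10452 CPM. Thrsp, a regulator of fatty acid synthesis, had 49.9 CPM against 229 CPM and 147 CPM against 681 CPM. The other lowest genes of the Dll1- tumor were Emid1, Scgb2b27, Lrg1, Rab3a, Crabp2, G0s2, Tmem252, Gpd1, Idi1 and Ttc39a, with log2 ratios between -2.16 and -1.97. Those of the Dll1+ tumor rested on few UMIs: Prpmp5 on 19, Saa2 on 14, Ntrk2 on 11, and Nrep, Gas1, Cyp2f2, Tk1, Tpx2, Scrg1 and Abcb9 on 3 to 7 each. Rgs5 had 0 UMIs in the Dll1+ state cells, against 2226 UMIs (25.5 CPM) in the other gated cells. Against a floor of 3 counts over the group, 3.26 CPM, it was at least 7.83-fold lower.

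Of 12 measured genes of the unfolded protein response, which folds and clears secreted proteins, 1 was lower and 1 higher in the Dll1+ tumor (median -0.06), and 10 were lower and 0 higher in the Dll1- tumor (-0.89). Xbp1, the transcription factor of the response, was lower in both, with 220.4 CPM (191 to 253) against 366 CPM and 236 CPM (225 to 248) against 736 CPM. Calr, a chaperone of the endoplasmic reticulum, had 468 CPM against 544 CPM in the Dll1+ tumor and 294 CPM against 664 CPM in the Dll1- tumor, and Hspa5 had 414 CPM against 420.1 CPM and 463 CPM against 754 CPM. Over the settings tried the median ran from -0.71 to 0.07 in the Dll1+ and from -0.96 to -0.75 in the Dll1- tumor, and the difference between the tumors was not tested. Of 13 immediate early genes 5 were lower in the Dll1+ (median -0.36) and 8 in the Dll1- tumor (-0.72), with 0 higher. Among them were Btg2 (log2 ratios -0.65 and -1.06), Nr4a1 (-0.96 and -1.07) and Zfp36 (-0.76 and -0.96). Of 13 interferon-stimulated genes 1 was higher and 1 lower in the Dll1+ tumor, and 2 were higher and 0 lower in the Dll1- tumor. Of 9 MHC class I genes 0 passed 1.5-fold in either tumor.

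Of 14 genes of G2 and M phase, 13 were lower in the Dll1+ (median -1.23) and 12 in the Dll1- tumor (-0.91), and of 14 genes of S phase 8 and 7 were lower, with 0 higher in either list. The counting interval lay below 0 for 12 of the 13 and 4 of the 8 in the Dll1+ tumor, and for all of them in the Dll1- tumor. Mki67, the proliferation marker, had 23.9 CPM (15.0 to 36.2) against 57.1 CPM and 16.8 CPM (13.9 to 20.2) against 43.6 CPM. Top2a, topoisomerase II alpha, had 46.7 CPM (33.8 to 62.9) against 72.2 CPM and 17.0 CPM (14.1 to 20.4) against 41.9 CPM. With cells holding 2 or more of the G2 and M genes left out of both groups, the G2 and M median of the Dll1- tumor was 0.11 and the S phase median of the Dll1+ tumor 0.19.

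**Figure D3:**
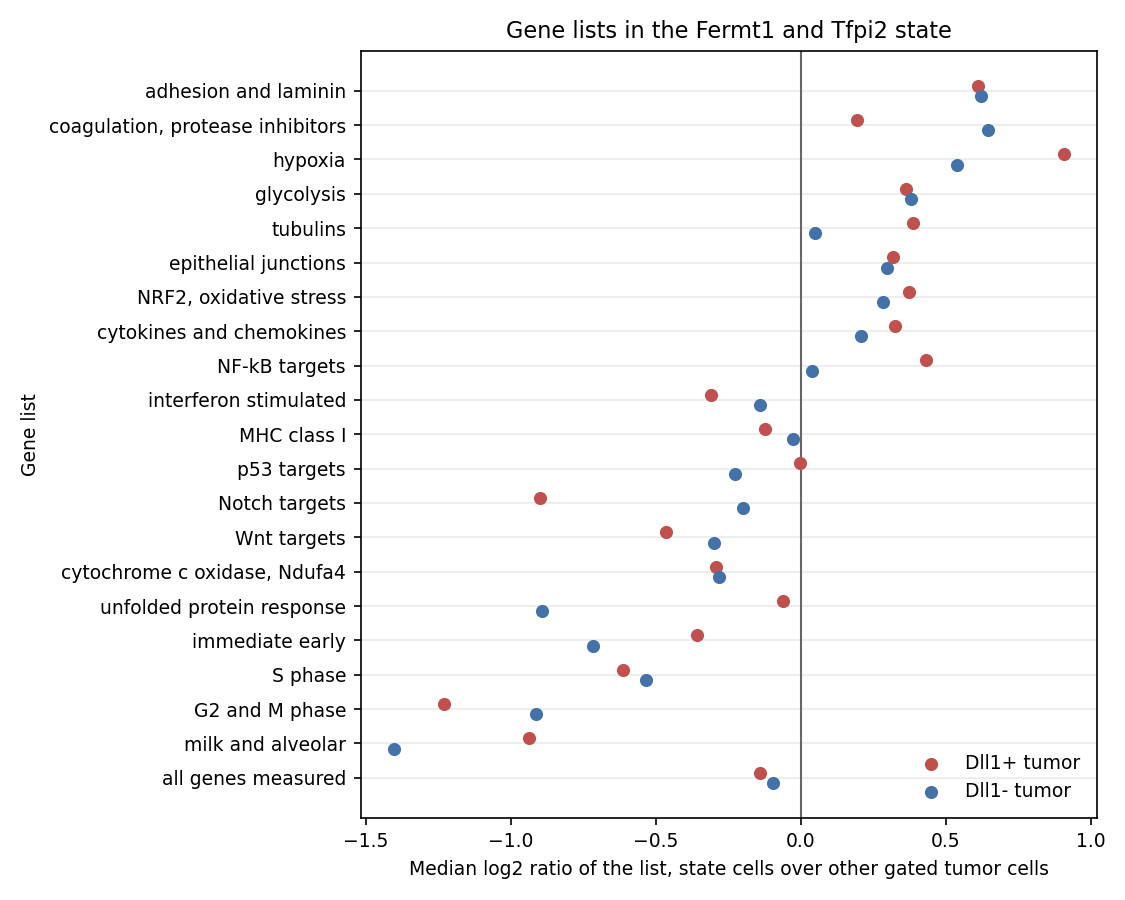
Median log2 ratio of each gene list, state cells over the other gated tumor cells, in the Dll1+ and Dll1- tumor; the last line gives all measured genes. Hypoxia (0.91 and 0.54) and adhesion (0.61 and 0.62) lie to the right in both tumors, and milk (-0.94 and -1.40) and G2 and M phase (-1.23 and -0.91) to the left.

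Dll1, the Notch ligand by which the tumors are labelled, was at 24.97 CPM (15.8 to 37.5, 23 UMIs) in Dll1+ state cells against 50.4 CPM (48.9 to 51.9) in the other gated cells, and at 5.37 CPM (3.78 to 7.41) in Dll1- state cells against 3.79 CPM (3.44 to 4.17). Jag1, given above, was higher in the state of both tumors. Of 6 measured Notch targets 5 were counted lower in the Dll1+ and 1 in the Dll1- tumor, with 0 higher. In the Dll1+ tumor the counting interval lay below 0 for 3 of the 5, Hes1, Notch3 and Nrarp. Notch3 is also a pericyte marker. Of those markers 9 of 9 were counted lower in the Dll1+ tumor, 4 with the interval below 0, and the part of pericyte RNA was not tested. Heyl, at 0 UMIs against 0.916 CPM, was under the floor, and Hey1 rested on 7 UMIs. The medians were -0.90 and -0.20, and the first was -0.73 with Nrarp and Heyl, at 0 UMIs in the Dll1+ state, set to the floor. Hes1, a repressor induced by Notch, had 99.9 CPM (80.5 to 122) against 168 CPM in the Dll1+ tumor and 51.0 CPM (45.8 to 56.6) against 57.9 CPM in the Dll1- tumor. Nrarp had 0 UMIs in Dll1+ state cells against 5.97 CPM in the other gated cells, at least 1.83-fold lower. Ccnd1, cyclin D1, in the Wnt target list, was lower in both tumors, with log2 ratios of -1.07 and -0.98.

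Among receptors and surface proteins, Cd44 and Itga2, given above, and Ly6a (Sca-1) were higher in both tumors, Ly6a with 693 CPM (639.9 to 749) against 126 CPM and 459.8 CPM (444 to 476) against 180.4 CPM. Kit had 77.1 CPM against 155 CPM and 16.8 CPM against 37.1 CPM. Prlr, the prolactin receptor, had log2 ratios of -0.78 and -1.75. Of the EGF receptor ligands, receptors and targets 2 of 13 were higher and 3 lower in the Dll1+ tumor (median -0.05, or 0 with Epgn set to the floor), and 4 of 14 and 3 in the Dll1- tumor (-0.04). The lower ones were Dusp6, Erbb2 (8 UMIs) and Epgn (0 UMIs, under the floor) in the Dll1+ tumor, and Dusp6, Phlda1 and Ereg (1 UMI) in the Dll1- tumor. The ligand Areg had 57.5 CPM (43.1 to 75.3) against 15.2 CPM and 145 CPM (136 to 155) against 58.1 CPM, and Tgfa had ratios of 1.74 and 1.27. Of the cytokines and chemokines 7 of 19 were higher, Il1a on 1 UMI, and 3 lower in the Dll1+ tumor (median 0.33), and 6 of 18 and 3 in the Dll1- tumor (0.21). Csf3 (G-CSF) had 977 CPM (914 to 1043) against 146 CPM and 265 CPM (253 to 277) against 162 CPM, and Csf2 (GM-CSF) had 36.9 CPM against 2.43 CPM and 9.58 CPM against 0.766 CPM. Csf1 had log2 ratios of 0.52, under 1.5-fold, and 0.62. Hmga2, a chromatin protein of embryonic and tumor cells, had 19.5 CPM (11.6 to 30.9) against 1.92 CPM and 75.8 CPM (69.4 to 82.6) against 18.2 CPM.

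Markers of other cell types were measured beside these results. Fibroblast markers summed to 427 CPM in Dll1+ state cells against 154 CPM in the other gated cells, and to 142 CPM against 137 CPM in the Dll1- tumor, with Pdgfra at 0 by the gate. In the Dll1+ tumor 6 of 8 were higher (median 1.199), Dcn with 98.8 CPM against 11.6 CPM. With likely doublets removed, which took out 9 of the 50 cells, that median was -1.07, and without each gene's richest cell it was -0.41. Matrix genes that fibroblasts express highly, such as Fn1 (7255 CPM in Pdgfra barcodes of the Dll1+ library) and Timp1 (713 CPM), stood in the same cells, and the part of fibroblast RNA in their ratios was not tested. Pericyte markers summed to 26.1 CPM against 95.4 CPM in the Dll1+ tumor, where Rgs5, Cspg4, Myh11, Kcnj8 and Abcc9, 5 of 9, were at 0, and to 34.9 CPM against 57.6 CPM in the Dll1- tumor. Endothelial markers summed to 3.26 CPM against 13.3 CPM, with 7 of 9 at 0, and to 9.87 CPM against 9.47 CPM. Leukocyte markers summed to 28.2 CPM against 20.5 CPM and to 24.5 CPM against 18.4 CPM, mostly Cd68 (21.7 and 21.3 CPM in the state), and Ptprc and Cd3e were at 0 in the state cells of both tumors. Erythroid markers had 0 and 1 UMI. Markers of Krt5 cells summed to 509 CPM against 344 CPM in the Dll1+ and 147 CPM against 160.0 CPM in the Dll1- tumor, nearly all Krt14.

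The rule cuts a range. In the Dll1- tumor, cells below the Muc15 and milk limits that had 3 of the 6 genes, just outside it, and those with 4, just inside, had 748 CPM (731 to 764) and 1038 CPM (1008 to 1068) of Krt7. Jag1 had 28.9 and 67.2 CPM, and Lalba 364 and 244 CPM, in the same 2 sets of 866 and 345 cells. Over the whole range from 0 to 6 genes, Jag1 went from 4.19 CPM (1317 cells) through 8.93 CPM at 2 genes to 134 CPM (39 cells), and Inhba from 1.55 to 180.04 CPM. Lalba ran from 1271 CPM at 0 genes to 78.2 CPM at 5 and 105 CPM at 6, and Elf5 from 298 to 41.5 CPM. Top2a was at 36.7 CPM at 0 genes, 42.5 CPM at 2 and 6.16 CPM at 6, while in the Dll1+ tumor it was at 82.6 CPM at 0 genes, 25.5 CPM at 4 (35 cells) and 96.3 CPM at 5 (14 cells). The median depth was 7378 UMIs at 0 genes and 14538 at 6. These values share their library and are a description. In the Dll1+ tumor Krt7 ran from 36.3 CPM at 0 genes to 988 CPM at 5, and Tlx1, a homeobox gene with 0 UMIs in the Dll1- state, from 78.7 CPM at 0 genes through 23.8 CPM at 3 to 16.0 CPM at 4 and 35.7 CPM at 5.

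**Figure D4:**
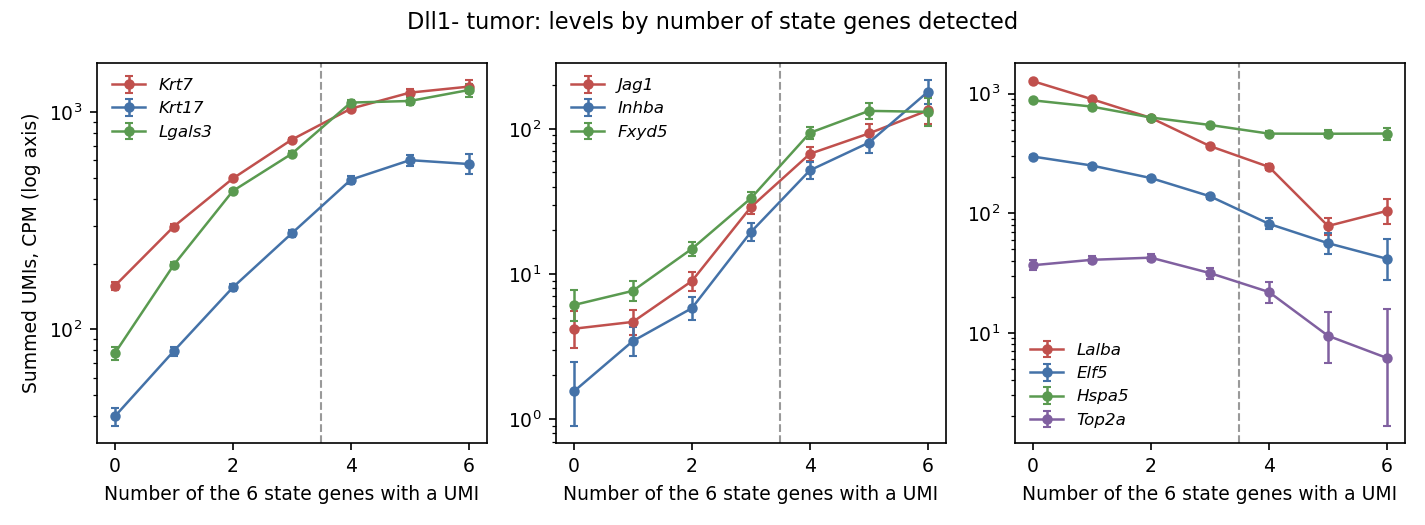
Levels (summed UMIs in CPM, log axis) of 10 genes in Dll1- tumor cells below the Muc15 and milk limits, by how many of the 6 state genes had a UMI; bars are 95% Poisson intervals and the dashed line is the limit of the rule. Krt7, Lgals3, Krt17, Jag1, Inhba and Fxyd5 lie higher and Lalba, Elf5, Hspa5 and Top2a lower at 4 genes than at 2.

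A second set of tumor cells, called Muc15 and Il23a cells, had at least 3 of Muc15, Slc5a8, Klk10, Il23a and Plb1 and under 4 of the 6 state genes. The milk limit of the state, under 5 UMIs of Csn2, Wap and Glycam1 together, was set for them too. The set held 1271 cells of the Dll1- tumor at a median of 14630 UMIs. Of 5753 genes 240 (4.17%) were past 2-fold higher in the state than in these cells and 328 (5.70%) past 2-fold lower. The counting interval lay wholly past 2-fold for 185 and 196 of them. This comparison shares its state cells with the one against all other gated cells, so the values are given side by side and not counted as support. Jag1 had 80.6 CPM in the state against 3.55 CPM (2.79 to 4.46), Fxyd5 108 CPM against 5.52 CPM, Inhba 71.7 CPM against 3.51 CPM and Pgf 267 CPM against 20.7 CPM. Mgat4b, a glycosyltransferase, had 44.7 CPM against 4.08 CPM. Spp1, osteopontin, had 271 CPM (259 to 284) against 36.4 CPM, and Ccl5 had 53.3 CPM against 6.20 CPM, in 23 cells. Crct1, Ctla2a, Ctla2b, Pla2g7 and Tnc completed the 12 highest.

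The 12 lowest genes against the Muc15 and Il23a cells included Ccl20, Ltf and Igfbp5. Ccl20, a chemokine of mucosal immunity, had 61.9 CPM (56.1 to 68.0) against 464 CPM (455 to 474). Ltf, lactoferrin, had 298 CPM (286 to 312) against 1803 CPM, and Igfbp5, which binds insulin-like growth factors, had 229 CPM against 1137 CPM. The lowest genes also held Lalba (185 CPM against 858 CPM), Psors1c2, Nrep, Arhgef38, Krt23, Adamts15, Mmp15, Cited4 (52.3 CPM against 228 CPM) and Wfdc17, with 65.7% of its state UMIs in 1 cell. Of the cytokine and chemokine list, 3 of 15 were higher and 7 lower (median -0.37), against 10.2% and 19.0% of all measured genes. Of the NF-kB targets 2 of 16 were higher and 6 lower (-0.24). Krt7 was at 387 CPM in these cells, close to the 370.0 CPM of all the other gated cells, and Xbp1 at 659 CPM against 236 CPM in the state.

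State cells of the Dll1+ tumor were also set against those of the Dll1- tumor. Of 6039 genes 544 (9.01%) were higher and 76 (1.26%) lower past 2-fold. The counting interval lay wholly past 2-fold for 273 and 18 of them. The median over the 6039 genes was 0.15, and with TMM factors the counts past 2-fold were 319 and 229. The share of higher genes among those past 2-fold was then 58.2% in place of 87.7%, so the split depends on scaling. The 12 highest genes were Cxcl5, Cd74, Kcne3, Gstt2, Fcgbp, Ccl7, Ecrg4, Cxcl10, Tlx1, Atp6v1b1, Prpmp5 and Sidt1. Of these, Cxcl5, Ccl7 and Cxcl10 are chemokines. Cxcl10 had 667 CPM (615 to 721) in Dll1+ state cells against 24.98 CPM (21.4 to 29.0) in Dll1- state cells, with 43.6% of the Dll1+ UMIs in 1 cell. Ccl7 had 166 CPM against 4.94 CPM, with 51.0% of the Dll1+ UMIs in 1 of 11 cells. Among the others, Fcgbp had 77.4% in 1 of 3 cells, Prpmp5 57.9% in 1 of 7 and Kcne3 41.1% in 1 of 14. Cxcl5 had 315 UMIs in 7 cells against 0, of which 60.3% were in 1 cell. With 5 or more of the 6 genes required, its log2 ratio was 0. The other gated cells differed in the same direction, with 1038 CPM of Cxcl10 in the Dll1+ tumor and 20.3 CPM in the Dll1- tumor, and Ccl7 at 180.4 and 8.84 CPM. Cd74, the MHC class II invariant chain, had 127 CPM against 1.16 CPM in the state and 152 CPM against 2.90 CPM in the other gated cells.

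Of the cytokines and chemokines 12 of 16 were higher in the Dll1+ state and 2 lower (median 1.55), against 22.0% and 8.63% of all 9681 genes measured in these cells. Tslp, an epithelial cytokine, had 124 CPM (102 to 149) in the Dll1+ and 7.70 CPM (5.77 to 10.1) in the Dll1- state, against 19.3 and 1.91 CPM in the other gated cells, so that it stood higher in the state within each tumor. Without each gene's richest cell the median of the list was 1.11, and over all settings tried it ranged from 0.02 to 1.57. The 12 lowest genes held the acute phase genes Saa1, Saa2 and Saa3, and reads of Saa1 and Saa2 may be shared. Saa1 had 94.5 CPM (75.7 to 117) against 343 CPM and Saa2 15.2 CPM (8.31 to 25.5) against 291 CPM. They also held Sprr1a, Tchh and Asprv1, genes of cornified epithelium, with 0, 5 and 12 UMIs in the Dll1+ state. In the Dll1- state 87.9% of the Sprr1a and 79.1% of the Tchh UMIs were in 1 cell each. Over the settings tried, the log2 ratio of Tchh ran from -4.24 to -0.21 and that of Asprv1 from -3.80 to -0.19. The rest of the 12 lowest were Hmga2 (19.5 CPM against 75.8 CPM), S100a14 (44.5 CPM against 140.0 CPM), Bpifb5, Plekha5, Tbc1d9 and Kdelr3. Hypoxia, glycolysis and adhesion genes had medians of 0.04, 0.02 and 0.08, against 0.15 over all genes measured. On chromosome 2 the median of 476 genes was -0.23, against 0.10 to 0.23 on the other chromosomes. For state cells over the other gated cells of the same tumor, the chromosome 2 median was -0.02 in the Dll1+ and -0.01 in the Dll1- tumor. The other gated cells of the 2 tumors were not compared by chromosome. Jag1 and the rule genes Fermt1, Prrg4 and AA467197 lie on chromosome 2. The part of this chromosome in their values, and in the state's share of gated cells in each tumor, was not tested.

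**Figure D5:**
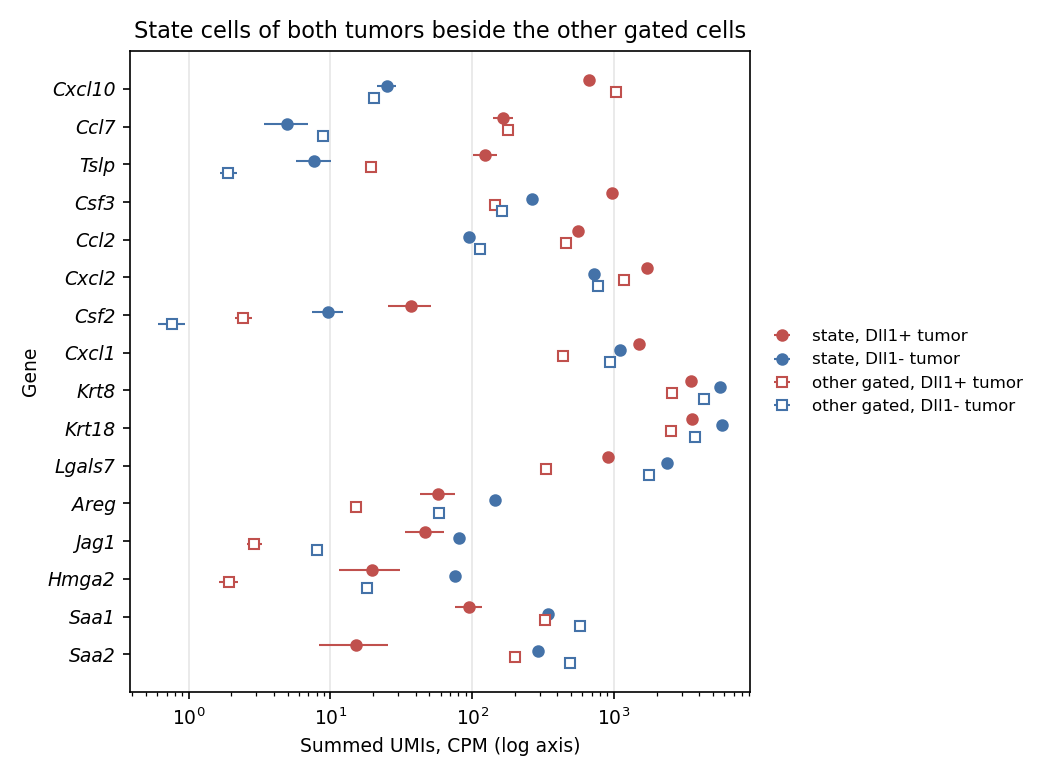
Levels (summed UMIs in CPM, log axis) of 16 genes in state cells (filled circles) and the other gated tumor cells (open squares) of the Dll1+ and Dll1- tumor; bars are 95% Poisson intervals. Cxcl10 and Ccl7 follow the tumor, while Jag1, Csf2, Areg and Hmga2 lie to the right of the other gated cells in both tumors.

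Members of the state varied among themselves. At 3000 UMIs per cell, the genes with the highest variance over mean in Dll1- state cells were Malat1, Crct1, Wfdc18, Csn3, Lcn2, Spp1, Tchh, S100a8, Sprr1a and Clu, and Malat1, Wfdc18, Csn3, Lcn2, Spp1 and Clu were also among the 10 of the Dll1+ tumor. Csn3 had a median of 1252 CPM per cell in the Dll1- state, with a 10th percentile of 155 CPM and a 90th of 10130 CPM. Spp1 had UMIs in 103 of 519 cells and up to 16616 CPM in 1. Lcn2, lipocalin 2, was found in all 519 cells, with a median of 12777.5 CPM and percentiles of 4067 and 29311 CPM. Tchh and Sprr1a, cornified genes, had UMIs in 38 and 12 cells, with 79.1% and 87.9% of the UMIs in 1 cell each. In the Dll1+ state Cst3 and Cxcl5 stood out, with 18510 and 7874 CPM in the richest cell and medians of 213 and 0 CPM.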

How the data were processed

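Live CD45- cells of 1 Dll1+ and 1 Dll1- tumor were measured by 10x Single Cell v3 sequencing, per the labels' protocols. The authors deposited raw UMI counts per gene and barcode, from Cell Ranger 4.0.0, as per the file headers, on mm10, per the submitters' processing notes; no label or header names the annotation release or settings. Counts are of collapsed molecules, and neither removal of ambient RNA nor of doublets is recorded. Gene positions came from GENCODE M21, which held 32235 of the 32285 gene IDs; for 38 symbols with several IDs, counts per symbol may be split.

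Libraries held 117230907 (Dll1+) and 135960457 (Dll1-) UMIs, medians of 5853 and 8939 per barcode. Counts were summed per cell group with Python 3.11.15, numpy 2.4.6, scipy 1.17.1 and pandas 2.3.3, scaled to CPM and compared as log2 ratios with 1 CPM added. Genes were called past 2-fold with at least 20 CPM in one group, and list members past 1.5-fold with at least 30 UMIs over both. Levels carry exact Poisson and shares exact Clopper-Pearson intervals of 95%, which cover counting error only. The calculation was tested on simulated data. Cells are not replicates and each group is 1 library, so no test was run. Doublet scores came from scanpy 1.11.5; its automatic threshold marked 0 barcodes, so the highest-scoring 896 (8.47%) and 989 (8.89%) were removed as an alternative. TMM factors came from edgeR 4.0.16 in R 4.3.3.

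The text names the 12 highest and 12 lowest genes of each of the 4 comparisons, without mitochondrial, ribosomal, sex-linked marker, unnamed and rule genes, plus members of the gene lists. A few genes that this rule or the lists would name are not reported here. Members and lists were chosen with earlier results of these data known. The 4 comparisons share cells, except the state against other gated cells in the Dll1+ and in the Dll1- tumor.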

Additional observations from a re-analysis of the deposited data

Results flagged for a closer look

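Mal and Tmem252 were past 2-fold in opposite directions in the 2 tumors, among 5510 genes counted in both. Mal, a membrane protein of apical sorting, had 43.4 CPM in Dll1+ state cells against 16.9 CPM in the other gated cells (log2 ratio 1.31), and 12.2 CPM in Dll1- state cells against 28.8 CPM (-1.18). Its Dll1+ UMIs were in 9 cells, 67.5% of them in 1. Tmem252 had 20.6 CPM against 8.28 CPM in the Dll1+ tumor (1.22) and 5.66 CPM against 25.9 CPM in the Dll1- tumor (-2.01). Its 19 Dll1+ UMIs were in 4 cells, 52.6% of them in 1. With 1 library per tumor, the difference between tumors was not tested.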

How the results depend on the processing

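The state's share of gated cells was lower in the Dll1+ than in the Dll1- tumor under each rule tried: 2.61% and 15.2% with 3 or more genes (difference -12.6 points), 0.194% and 1.91% with 5 or more (-1.71), 0.271% and 3.18% without Hmox1 (-2.90), and 0.0718% and 1.31% thinned to 3000 UMIs (-1.24), against -5.04 as reported. Higher and lower counts moved as follows, and the cause was not tested. A pseudocount of 10 CPM gave 142 and 138 in the Dll1- tumor, 119 lower in the Dll1+ tumor, 154 and 158 against the Muc15 and Il23a cells, and 320 and 33 between tumors. With no filter the counts were 458 and 720, 1081 and 1510, 543 and 785, and 2264 and 702, in that order, since more genes were counted. Thinning gave 833 and 990 in the Dll1+ tumor, 517 lower against the Muc15 and Il23a cells, and 1236 and 443 between tumors. With 5 or more genes, 700 were lower in the Dll1+ tumor, 823 and 312 differed between tumors, and Fcgbp turned to -0.48. TMM gave 319 and 229 between tumors, and centring on the median 145 lower. Without doublets 589 were lower in the Dll1+ tumor, and without cycling cells 447. Leaving out each gene's richest cell, chosen after seeing the data, gave 222 and 590 in the Dll1+ tumor and 310 and 146 between tumors. The share of higher genes was then 27.3% in place of 54.7% in the Dll1+ tumor, and 68.0% in place of 87.7% between tumors. This setting kept the depth of each whole group, so it tends to take a larger share of a gene from the group with fewer cells. The median over the counted genes shifted by -0.17 in the Dll1+ tumor and by -0.16 between tumors. The part of group size in the counts and list medians of this setting was not tested.

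Some list medians reversed. Leukocyte markers in the Dll1- tumor had 1.00 after thinning. Without cycling cells, G2 and M genes had 0.11 in the Dll1- tumor and 0.39 against the Muc15 and Il23a cells, and S phase genes 0.19 in the Dll1+ tumor. Fibroblast markers in the Dll1+ tumor had -1.07 without doublets and -0.41 without richest cells, and between tumors -0.41 without doublets. Between tumors, S phase genes had -0.15 after thinning, and Notch ligands 0.55 without doublets and 0.40 without richest cells. Counting each list under each alternative once, 917 of the other list medians moved little and 500 more, and likewise 647 and 312 of the ratios of named genes. No paired analysis was possible because each group is 1 library. The 50 Dll1+ state cells limit what low genes can show there.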
